A study of Homo sapiens with 8 samples.

Results

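The 43 genes described here encode proteins of the lysosome and of autophagy, together with the MiT/TFE transcription factors and the nutrient-sensing proteins that sit on the lysosomal surface. They were taken from a list of gene symbols by role, and no rule on measured values picked them. The list was, however, chosen with earlier results of these data known. All 43 were found among the 58688 genes counted in each sample. They comprise 6 lysosomal membrane proteins, 8 proteases, 10 glycosidases and lipid-handling proteins, 5 subunits of the vacuolar proton pump (V-ATPase), 3 transcription factors, 6 autophagy proteins and 5 nutrient-sensing proteins. Their mRNA was measured by RNA sequencing in LM2 cells, a triple-negative human breast cancer line selected for spread to the lung from MDA-MB-231. In the first experiment, cells received 1 µM Ponatinib, an oral inhibitor of ABL and several other tyrosine kinases, for 6 h or the solvent DMSO, with 2 samples in each group. In the second, LM2 cells carried lentiviral short hairpin RNAs in stable lines, with 1 sample each for a scrambled hairpin (shCtrl), an ABL1 hairpin, an ABL2 hairpin and both hairpins. Nothing in the labels says that samples came from separate cultures, so p-values measure only the spread between these samples, which may be technical. In bulk RNA, fewer cells of a type and less RNA per cell cannot be told apart.

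The lysosome is an acidic compartment in which hydrolases break down proteins, glycans and lipids, and autophagy delivers parts of the cytoplasm to it inside double-membrane vesicles. When amino acids are plentiful, the Rag GTPases on the lysosomal surface recruit the kinase mTORC1, and the folliculin complex (FLCN with FNIP1 or FNIP2) acts on RRAGC and RRAGD so that mTORC1 can phosphorylate TFEB, TFE3 and MITF and hold them in the cytoplasm. When mTORC1 is off, these factors enter the nucleus and bind an E-box, the core of the CLEAR element, in the promoters of many lysosome and autophagy genes. The RNA data record mRNA levels and not the phosphorylation or location of these proteins.

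Sample totals ranged from 7568934 to 13010896 counts on genes, so that 3 counts in the shallowest sample, Ponatinib replicate 2, equal 0.396 CPM, the usual scaling of counts to library size. Levels are given as CPM normalized by the TMM method within each experiment. The 8 markers of the line summed to 2804 to 4199 CPM. Among them, VIM, a mesenchymal gene, was high in all 8 samples and the progesterone receptor PGR was at 0 in all. CD44, KRT8, KRT18, EPCAM, CDH1 and ESR1 had counts in 1 or more samples, and their separate levels are not given here. The 5 leukocyte and macrophage markers summed to 1.72 to 10.5 CPM with AIF1 at 0. The sum was 1.72 to 2.56 CPM in the DMSO and Ponatinib samples and 6.43 to 10.5 CPM in the shRNA samples, on scales set separately for each experiment, and the part of such RNA in the results was not tested. The 43 genes summed to 6180 and 6200 CPM with DMSO, 7106 and 6872 CPM with Ponatinib, and between 8375 and 9633 CPM in the shRNA samples. Each experiment has its own control, and changes of the 43 genes were taken only within each.

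Promoter sequences are shown first, because the E-box is what TFEB, TFE3 and MITF are known to bind. RefSeq promoter windows (GRCh38.p14, from 250 bases before to 50 bases after the first listed start of a gene) were at hand for 31 of the 43 genes. The missing entries are LAMP2, CTSB, HEXA, NAGLU, PSAP, ASAH1, ATP6V1A, ATP6V1B2, ATP6V1C1, ATP6V1H, UVRAG and RRAGD. Of the 31 windows, 10 (32.3%) held CACGTG on either strand, against 7.43% of 27305 promoters of the same length and 10.1% of the 10483 promoters of genes tested here. The longer TCACGTG, which contains CACGTG, was in 9 of 31 (29.0%) against 3.82% of all promoters and 5.93% of those of tested genes. TCACGTGA was in 5 (16.1%) against 1.04% and 1.97%, and the full palindrome of the CLEAR element, of 10 bases, was in 2, MCOLN1 and GAA, against 0.381% and 0.763%. Among 115 further genes of the same pathways, 23 held CACGTG and 21 (18.3%) TCACGTG. Since the element is already known from promoters of lysosome genes, these shares describe the lists and were not tested. Windows of 30 bases around 1 TCACGTG of each of the 9 genes follow, with the motif in capitals. The windows lie at chr13:113297199-113297228 for LAMP1, chr19:7522598-7522627 for MCOLN1, chr20:45891298-45891327 for CTSA, chr11:1763957-1763986 for CTSD and chr17:80101493-80101522 for GAA. Those of the other 4 genes lie at chr6:31862930-31862959 for NEU1, chr16:67481199-67481228 for ATP6V0D1, chr5:131797094-131797123 for FNIP1 and chr1:38859867-38859896 for RRAGC. Each is read 5′ to 3′ on the strand that holds the motif, which is the gene's own strand except for CTSD, FNIP1 and RRAGC.
LAMP1: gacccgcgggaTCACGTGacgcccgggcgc
MCOLN1: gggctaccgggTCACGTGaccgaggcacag
CTSA: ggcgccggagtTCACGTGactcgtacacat
CTSD: acccggaccggTCACGTGggcgcggccggc
GAA: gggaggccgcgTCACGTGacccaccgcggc
NEU1: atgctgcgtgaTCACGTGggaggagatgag
ATP6V0D1: cccccttatggTCACGTGaggcgcttgcgc
FNIP1: ggggggccgcaTCACGTGgcggcgcgcgga
RRAGC: gtggtgccccgTCACGTGccggaatcacct

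LAMP1 held 6 TCACGTG matches in its window, the first 4 of them in near-repeats, and MCOLN1, CTSA, GAA and FNIP1 held a pair each. The 250 bases before the start of ULK1 (chr12:131894372-131894621, + strand) and GABARAPL1 (chr12:10212627-10212876, + strand) held no CACGTG, and those of CTSD (chr11:1763928-1764177, − strand) held 1, in capitals. These windows use the RefSeq starts. The gene spans given further on are from GENCODE, which begins GABARAPL1 and CTSD farther upstream, so that their windows lie within those spans. These 3 are shown because they belong to the members with the largest rises after Ponatinib. A missing match says only that these letters are not in this window.
ULK1: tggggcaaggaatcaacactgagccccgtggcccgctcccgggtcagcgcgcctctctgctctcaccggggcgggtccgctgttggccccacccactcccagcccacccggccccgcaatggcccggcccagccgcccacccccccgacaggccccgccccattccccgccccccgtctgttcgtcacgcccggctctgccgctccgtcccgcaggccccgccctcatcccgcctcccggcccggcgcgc
GABARAPL1: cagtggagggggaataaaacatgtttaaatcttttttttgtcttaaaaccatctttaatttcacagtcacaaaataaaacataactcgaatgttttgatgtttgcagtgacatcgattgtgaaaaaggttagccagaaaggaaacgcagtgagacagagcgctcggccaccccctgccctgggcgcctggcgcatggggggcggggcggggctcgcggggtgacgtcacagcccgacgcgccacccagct
CTSD: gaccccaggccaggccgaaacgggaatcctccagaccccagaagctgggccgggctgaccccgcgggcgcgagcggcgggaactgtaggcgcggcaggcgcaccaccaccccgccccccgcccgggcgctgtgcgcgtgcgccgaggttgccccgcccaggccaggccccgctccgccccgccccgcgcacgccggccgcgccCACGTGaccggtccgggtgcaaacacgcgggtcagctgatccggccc

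The first comparison asked how 6 h of Ponatinib changed these genes. All 43 passed the filter on low counts. By edgeR's quasi-likelihood test, at a Benjamini-Hochberg adjusted p under 0.05 over 16031 genes, 17 of the 43 (39.5%) rose with Ponatinib and 6 (14.0%) fell, while 15.0% of all tested genes rose and 15.7% fell. Of the 43, 4 rose by more than 1.5-fold, namely ULK1, GABARAPL1, TFEB and CTSD, and 0 fell by that much, beside 6.37% and 5.48% of all genes. Most rises were thus small. The median log2 fold change of the 43 was 0.12, and that of all tested genes was -0.01. The values of both groups did not overlap for 32 of the 43 genes, as for 64.9% of all genes. Fewer calls were made by DESeq2's Wald test (15 of the 43, beside 17.5% of all genes), without DMSO replicate 1 (13, beside 16.9%) and without DMSO replicate 2 (12, beside 19.5%). A larger change, a fold over 2 with an unadjusted P under 0.05, was met by ULK1 and GABARAPL1, beside 5.48% of all genes.

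**Figure D1:**
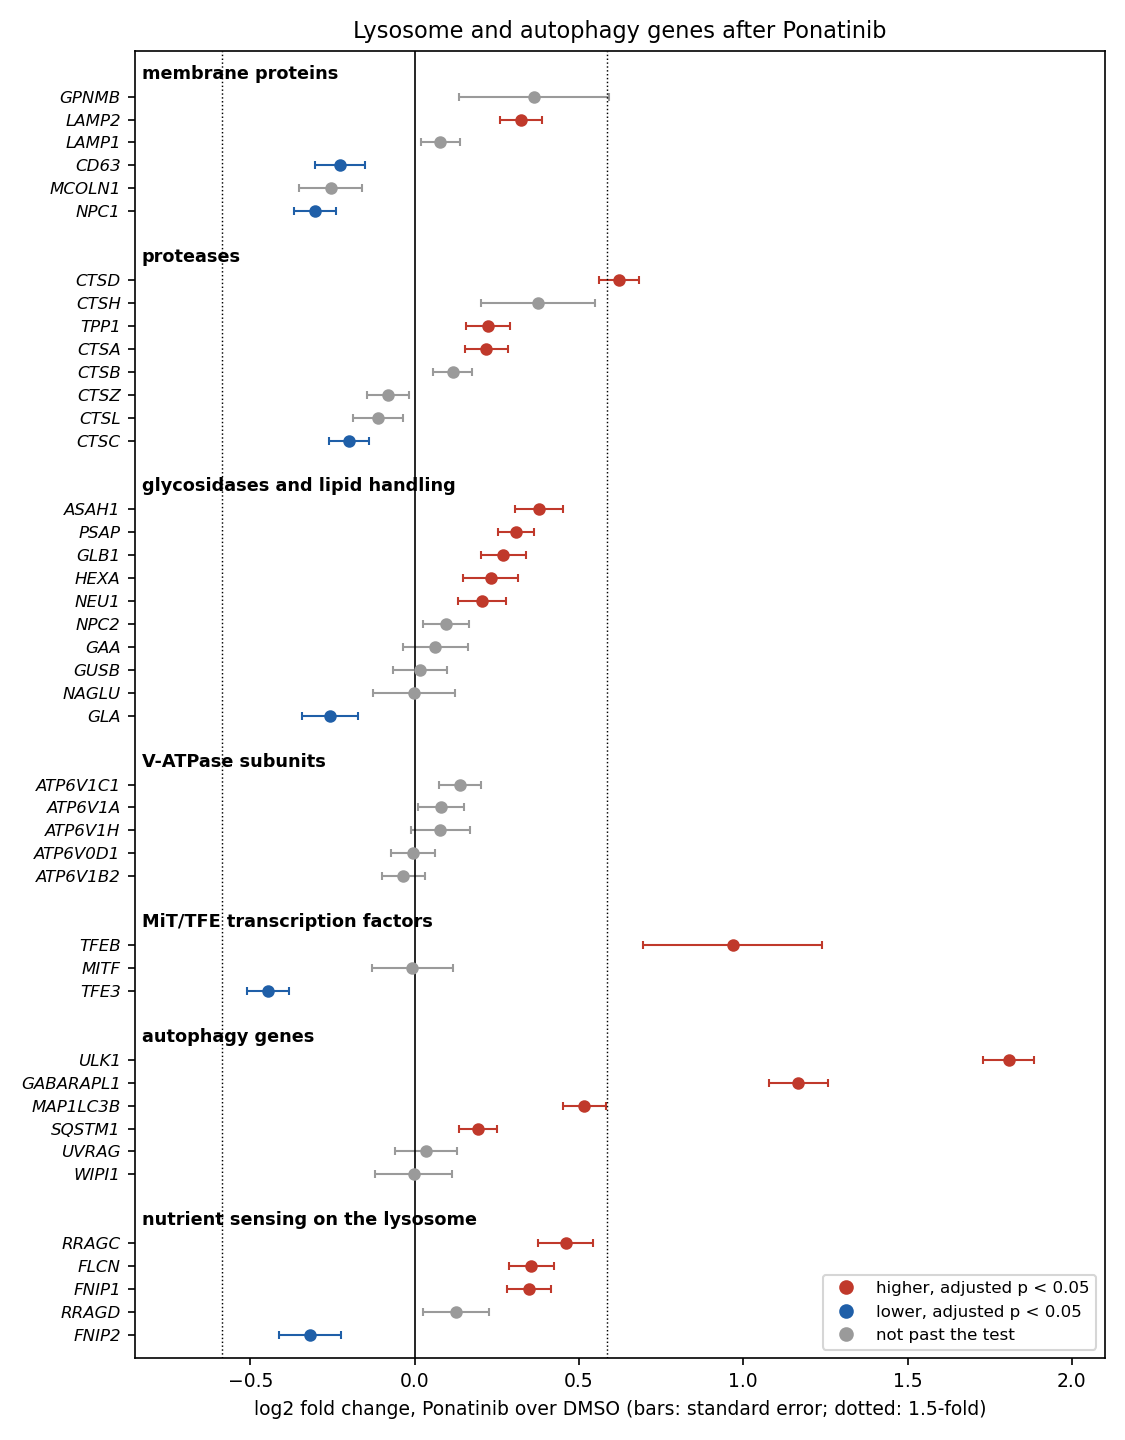
Log2 fold change of each of the 43 genes, Ponatinib over DMSO (2 samples each), grouped by role, with bars for the standard error and dotted lines at 1.5-fold; red and blue points passed the edgeR test at an adjusted p of 0.05. The autophagy genes ULK1 (1.81) and GABARAPL1 (1.17) stand to the right of the other genes, and the 5 V-ATPase subunits lie close to 0.

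Among the 3 transcription factors, TFEB rose, TFE3 fell and MITF did not pass the test. TFEB (chromosome 6, 41683978 to 41736259) encodes the best-known activator of lysosome genes and had the lowest DMSO level of the 43 genes. It was at 1.85 and 3.13 CPM with DMSO and at 5.03 and 4.54 CPM with Ponatinib, from 21, 31, 53 and 35 counts. The groups did not overlap, with a log2 fold change of 0.97 and a standard error (SE) of 0.27 (adjusted p = 0.0143 by edgeR), but the call was lost with DESeq2's Wald test on the same counts (adjusted p = 0.125). TFE3 (chromosome X, 49028726 to 49043410), which binds the same E-box, was expressed far more strongly. It was at 154.9 and 149.9 CPM with DMSO and at 110.1 and 113.8 CPM with Ponatinib, so both treated samples were below both controls. The log2 fold change was -0.45 (SE 0.06, adjusted p = 8.73e-05 by edgeR). MITF (chromosome 3, 69739456 to 69968336), best known as the master factor of melanocytes, was at 30.9 and 27.0 CPM with DMSO and at 25.5 and 33.0 CPM with Ponatinib. Its groups overlapped, and the log2 fold change was -0.01 with a standard error of 0.12 (adjusted p = 0.976 by edgeR). On the scale of CPM per kilobase of annotated exon, the DMSO levels of TFE3, MITF and TFEB were 36.2, 3.90 and 0.371. The 5 melanocyte markers summed to at most 3.54 CPM in any sample, with TYR at 0.

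Of the 5 nutrient-sensing genes, RRAGC, FLCN and FNIP1 rose, FNIP2 fell and RRAGD did not pass the test. RRAGC (chromosome 1, 38838198 to 38859772), 1 of the paralogs that pair with RRAGA or RRAGB in the Rag dimer, was at 36.9 and 35.3 CPM with DMSO and at 50.3 and 48.8 CPM with Ponatinib. Its log2 fold change was 0.46 (SE 0.08, adjusted p = 0.000673 by edgeR). Its paralog RRAGD (chromosome 6, 89364616 to 89412273), known as a strongly induced target of the MiT/TFE factors, was at 28.4 and 26.0 CPM with DMSO and at 30.5 and 28.7 CPM with Ponatinib. The groups stood apart by a narrow margin, with a log2 fold change of 0.12 (SE 0.10, adjusted p = 0.385 by edgeR). FLCN (chromosome 17, 17212212 to 17237188), which stimulates GTP hydrolysis by RRAGC and RRAGD, was at 72.0 and 75.8 CPM with DMSO and at 94.3 and 94.5 CPM with Ponatinib, a log2 fold change of 0.35 (adjusted p = 0.00105 by edgeR). Its partners went in opposite directions. FNIP1 (chromosome 5, 131641714 to 131797017) was at 98.3 and 96.3 CPM with DMSO and at 120.3 and 127.7 CPM with Ponatinib, a log2 fold change of 0.35 (adjusted p = 0.000973 by edgeR). FNIP2 (chromosome 4, 158769026 to 158908050) was at 41.1 CPM in both DMSO samples and at 30.7 and 35.7 CPM with Ponatinib, a log2 fold change of -0.32 (adjusted p = 0.0191 by edgeR). The fall of FNIP2 did not pass DESeq2's test (adjusted p = 0.143), while the rises of RRAGC, FLCN and FNIP1 did (0.00603, 0.0062 and 0.00305).

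The autophagy genes held the largest changes, with 4 of 6 higher and 0 lower. ULK1 (chromosome 12, 131894622 to 131923150) encodes the kinase that starts autophagy. It was at 44.9 and 48.1 CPM with DMSO and at 153.8 and 172.3 CPM with Ponatinib, so the lowest treated sample was far above both controls. The change was 3.50-fold, or 1.81 on the log2 scale (SE 0.08, adjusted p = 2.51e-10 by edgeR). GABARAPL1 (chromosome 12, 10212458 to 10223128), a member of the family of ubiquitin-like proteins that are joined to lipid on the autophagosome, was at 23.7 and 23.0 CPM with DMSO and at 53.9 and 50.9 CPM with Ponatinib. This was a 2.25-fold rise (log2 1.17, SE 0.09, adjusted p = 1.69e-07 by edgeR). MAP1LC3B, which encodes the widely used autophagosome marker LC3B, was at 87.7 and 91.5 CPM with DMSO and at 126.7 and 129.5 CPM with Ponatinib, a log2 fold change of 0.52 (adjusted p = 2.71e-05 by edgeR). Its near-identical copy MAP1LC3B2 had 0 counts in these 4 samples, and reads shared between the copies cannot be told apart. The cargo receptor SQSTM1 (p62) rose slightly, from 431.2 and 440.7 to 498.0 and 498.3 CPM (log2 0.19, adjusted p = 0.0186 by edgeR). WIPI1, a phosphoinositide-binding protein of the forming autophagosome, and UVRAG, a subunit of a PI3-kinase complex, had overlapping groups and log2 fold changes of -0.003 and 0.03 (adjusted p = 0.988 and 0.822 by edgeR).

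**Figure D2:**
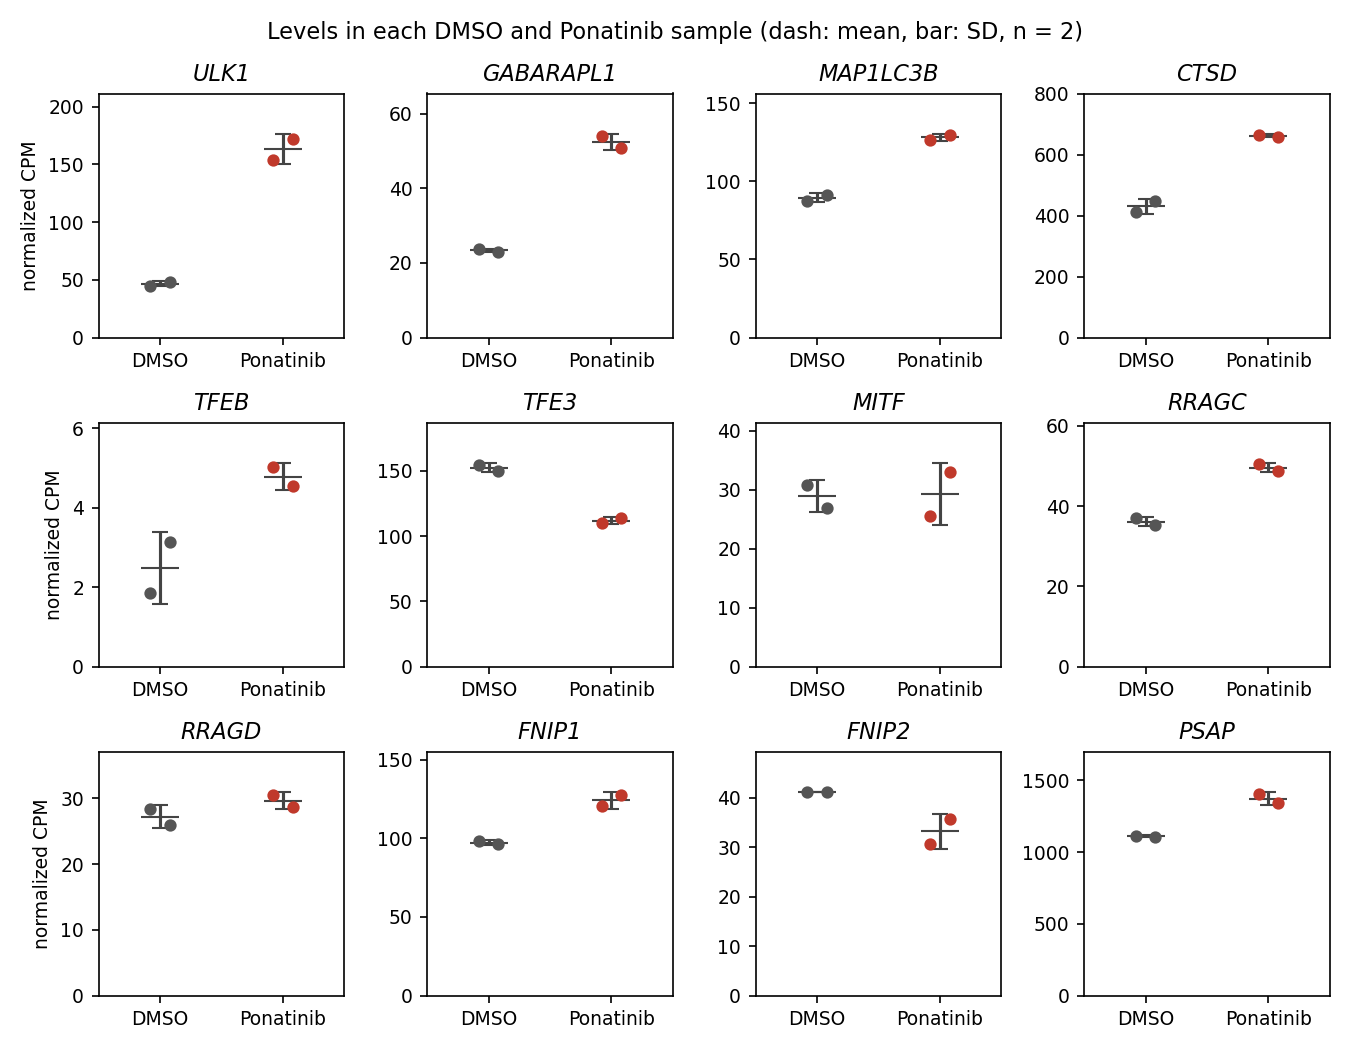
Normalized CPM of 12 of the genes in each DMSO and Ponatinib sample (points), with the mean (dash) and SD (bar, n = 2). ULK1, GABARAPL1, MAP1LC3B, CTSD and RRAGC were higher in both Ponatinib samples, TFE3 and FNIP2 were lower, and the points of MITF overlap.

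Among the 8 proteases, CTSD, TPP1 and CTSA rose, CTSC fell and CTSB, CTSH, CTSL and CTSZ did not pass the test. CTSD (chromosome 11, 1752752 to 1764573), the main aspartic protease of the lysosome, was at 412.4 and 448.8 CPM with DMSO and at 665.9 and 658.9 CPM with Ponatinib. The groups stood well apart, with a 1.54-fold rise (log2 0.62, SE 0.06, adjusted p = 1.94e-06 by edgeR). Of the annotated exon bases of CTSD, 48.0% are shared with other annotated genes, and whether the counting used strand is not given in the sources used here. The next highest shares among the 43 genes were 31.65% for CTSZ, 28.1% for WIPI1 and 23.1% for RRAGC. TPP1, a peptidase lost in a childhood neuronal storage disease, and CTSA, the protective protein of a glycosidase complex, each had a log2 fold change of 0.22 (adjusted p = 0.0179 for both by edgeR). CTSC, which activates serine proteases of immune cells, fell by 0.20 on the log2 scale (adjusted p = 0.0224 by edgeR). None of these 3 passed with DESeq2 (adjusted p = 0.0715 for TPP1, 0.0594 for CTSA and 0.0773 for CTSC). The log2 fold changes of the other 4 proteases ran from -0.11 for CTSL to 0.38 for CTSH, the latter at only 7.06 to 10.9 CPM.

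Of the 10 glycosidases and lipid-handling genes, ASAH1, PSAP, GLB1, HEXA and NEU1 rose, GLA fell and GAA, GUSB, NAGLU and NPC2 did not pass the test. PSAP, the precursor of the saposins that present sphingolipids to their hydrolases, was the most abundant of the 43 genes per kilobase of exon (356 CPM per kilobase with DMSO). It was at 1114 and 1104 CPM with DMSO and at 1404 and 1342 CPM with Ponatinib (log2 fold change 0.31, adjusted p = 0.000642 by edgeR). ASAH1, the acid ceramidase, was at 53.1 and 54.4 CPM with DMSO and at 68.7 and 71.1 CPM with Ponatinib (log2 fold change 0.38, adjusted p = 0.00114 by edgeR). GLB1, HEXA and NEU1, which cleave galactose, hexosamine and sialic acid from glycoconjugates, had log2 fold changes of 0.27, 0.23 and 0.20 (adjusted p = 0.00754, 0.0478 and 0.0471 by edgeR). The calls of HEXA and NEU1 were near the threshold and did not pass DESeq2's test (adjusted p = 0.233 and 0.206). GLA, the galactosidase deficient in Fabry disease, was at 60.2 and 62.1 CPM with DMSO and at 54.9 and 46.6 CPM with Ponatinib. It fell by 0.26 on the log2 scale (adjusted p = 0.0333 by edgeR and 0.153 by DESeq2).

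Membrane proteins moved in both directions, and the proton pump did not pass the test in any of its 5 members. LAMP2, the receptor of chaperone-mediated autophagy, rose with a log2 fold change of 0.32 (adjusted p = 0.00138 by edgeR). Its abundant relative LAMP1, at 296.7 and 294.7 CPM with DMSO and 318.2 and 305.4 CPM with Ponatinib, had a log2 fold change of 0.08 (adjusted p = 0.354 by edgeR). NPC1, which exports cholesterol from the lysosome, fell by 0.30 and the tetraspanin CD63 fell by 0.23 on the log2 scale (adjusted p = 0.00211 and 0.0354 by edgeR). CD63 was near the threshold with DESeq2's test (adjusted p = 0.0498). It was at 596.7 and 568.2 CPM with DMSO and at 543.7 and 450.9 CPM with Ponatinib. Its log2 fold change ran from -0.36 to -0.10 when 1 sample was left out. MCOLN1, the calcium channel of the lysosome, was at 31.9 and 34.9 CPM with DMSO and at 28.0 and 27.8 CPM with Ponatinib, without overlap, and just missed the threshold with a log2 fold change of -0.26 (adjusted p = 0.0586 by edgeR). GPNMB, a glycoprotein that accumulates in stressed lysosomes, was low, at 3.94 to 6.36 CPM, with a log2 fold change of 0.36 and a standard error of 0.23 (adjusted p = 0.252 by edgeR). The V-ATPase subunits ATP6V0D1, ATP6V1A, ATP6V1B2, ATP6V1C1 and ATP6V1H had log2 fold changes between -0.04 and 0.14, with edgeR adjusted p-values from 0.116 to 0.963.

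The 9 genes with TCACGTG in their promoter window divided into 5 that rose (CTSA, CTSD, NEU1, FNIP1 and RRAGC), 0 that fell and 4 that did not pass the test (LAMP1, MCOLN1, GAA and ATP6V0D1). The 22 genes whose window lacks it divided into 8 that rose, 6 that fell and 8 that did not pass the test. Genes without a window are in neither count. Of these, LAMP2, PSAP, ASAH1 and HEXA rose, and the others did not pass the test. Among all 622 tested genes with TCACGTG in the window, 22.2% rose and 16.7% fell, with a median log2 fold change of 0.04. Of all tested genes, 15.0% rose and 15.7% fell, and the shares among tested genes whose window lacks TCACGTG were not counted. The genes with the full palindrome, MCOLN1 and GAA, were both among those not called, and the genes with the largest rises, ULK1 and GABARAPL1, had no CACGTG in the windows printed above. These are counts without a test, and whether TFEB, TFE3 or MITF act on any of these genes was not tested.

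Further genes of the same pathways, 146 in 6 lists, were measured to set the 43 in context. Of 144 that could be tested (ATP6V0C and CASTOR1 could not), 37 rose and 12 fell, so 34.0% were called against 53.5% of the 43 genes and 30.7% of all genes. Among 31 other lysosomal hydrolases, 13 rose and 0 fell. The largest of these rises were in CTSF (log2 0.99), DNASE2, the acid DNase (0.95), MANBA, a mannosidase (0.93), and CTSO (0.83). CTSF was at 10.4 and 12.4 CPM with DMSO and at 23.2 and 21.9 CPM with Ponatinib. CTSO was low, at 2.56 and 3.03 CPM with DMSO and at 5.97 and 3.64 CPM with Ponatinib. It rests on 29, 30, 63 and 28 counts, and its adjusted p was 0.0328 by edgeR. The other groups were more divided, with 2 of 17 other membrane proteins higher and 3 lower, and 1 of 12 other V-ATPase subunits higher and 4 lower. SLC36A1, an exporter of amino acids and protons from the lysosome, fell by 0.73 on the log2 scale (adjusted p = 5.16e-05 by edgeR).

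Of 39 other autophagy genes, 10 rose and 3 fell. CALCOCO2 (NDP52), a receptor for bacteria and mitochondria, rose with a log2 fold change of 0.73, and ZFYVE1 and ATG14 rose by 0.65 and 0.60 on the same scale. GABARAP, a relative of GABARAPL1, fell by 0.70 on the log2 scale, from 11.7 and 7.58 to 6.92 and 4.80 CPM (adjusted p = 0.031 by edgeR). In 26 other nutrient-sensing genes, 5 rose and 1 fell. The sestrins SESN2 and SESN3, stress-induced inhibitors of mTORC1, changed most. SESN2, which binds leucine, was at 16.7 and 15.3 CPM with DMSO and at 82.1 and 83.9 CPM with Ponatinib, a 5.18-fold rise (log2 2.37, adjusted p = 5.89e-11 by edgeR). SESN3 was at 8.03 and 9.19 CPM with DMSO and at 21.7 and 27.9 CPM with Ponatinib (log2 1.51, adjusted p = 2.72e-06 by edgeR). Of 19 genes of sorting and fusion, 6 rose, VPS33A with a log2 fold change of 0.65, and 1 fell.

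**Figure D3:**
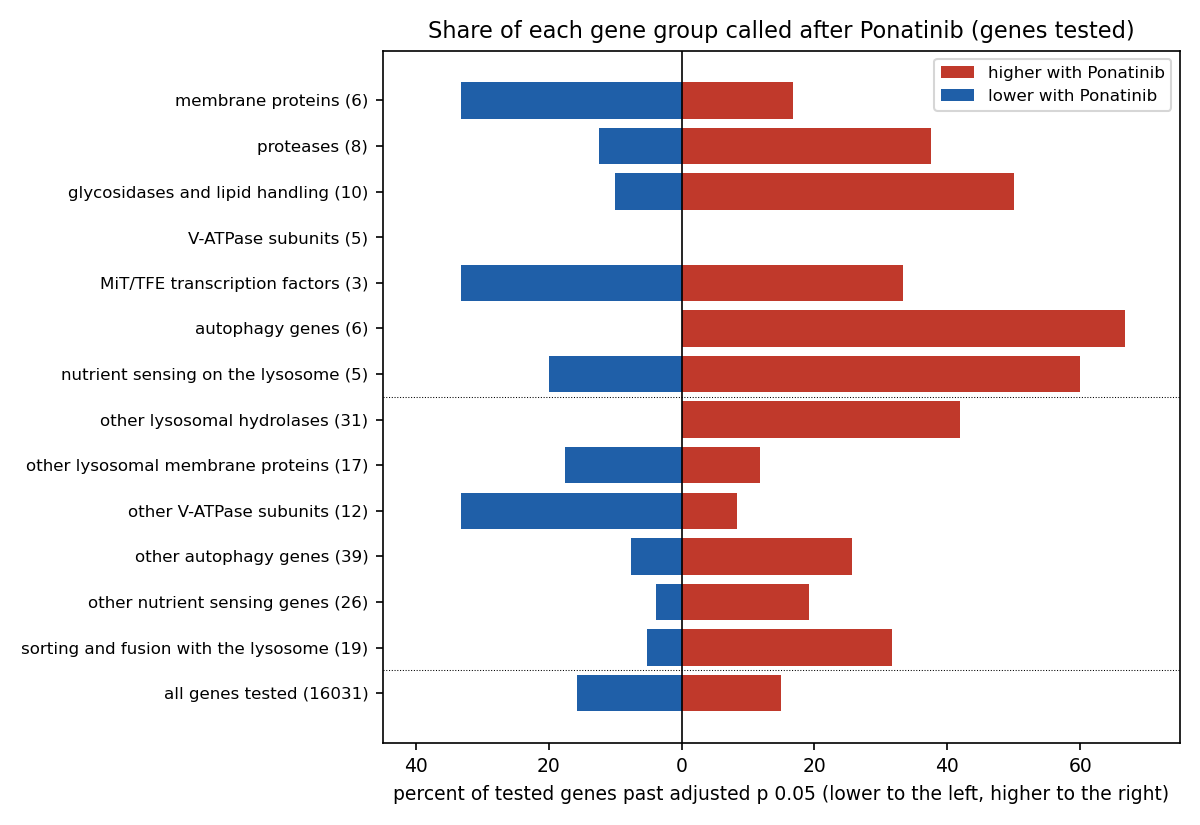
Percent of the tested genes of each group (number in parentheses) that rose (right, red) or fell (left, blue) with Ponatinib at an edgeR adjusted p under 0.05. The top 7 bars are the 43 genes by role, the next 6 are further genes of the same pathways, and the bottom bar is all 16031 tested genes (15.0% higher, 15.7% lower).

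The second comparison set each ABL knockdown beside the scrambled hairpin. Each target was lower in the samples that carry its hairpin than in shCtrl, which goes with the labels. In shCtrl ABL1 was at 190.1 CPM, against 72.7 under the ABL1 hairpin, 202.1 under the ABL2 hairpin and 109.4 under both, and ABL2 was at 236.5, 212.2, 93.3 and 147.8 CPM in the same order. With 1 sample per group there is no replicate check and no test, and the 3 comparisons share the shCtrl sample. Ratios are given with 95% intervals that cover counting error only. A gene was counted as changed past 1.5-fold.

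Few of the 43 genes went past 1.5-fold. With ABL1 shRNA GUSB was higher and LAMP1, MITF and MCOLN1 were lower, which is 4 of 43 beside 23.7% of all genes. With ABL2 shRNA GPNMB and GUSB were higher and MITF was lower, which is 3 of 43 beside 19.5%. With both hairpins GUSB and GLA were higher and LAMP1, MITF and ASAH1 were lower, which is 5 of 43 beside 21.1%. Most of the 43 genes are well expressed, and among genes with at least 50 counts the shares of all genes were 17.3%, 12.8% and 14.3%. By direction, 12.3%, 11.2% and 11.6% of all genes were higher and 11.3%, 8.29% and 9.48% were lower. The median log2 ratios of the 43 to shCtrl were -0.01, -0.04 and -0.11. In shCtrl itself, the level was the highest of the 4 samples for 19 genes and the lowest for 14, beside 31.9% and 28.3% of all genes.

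**Figure D4:**
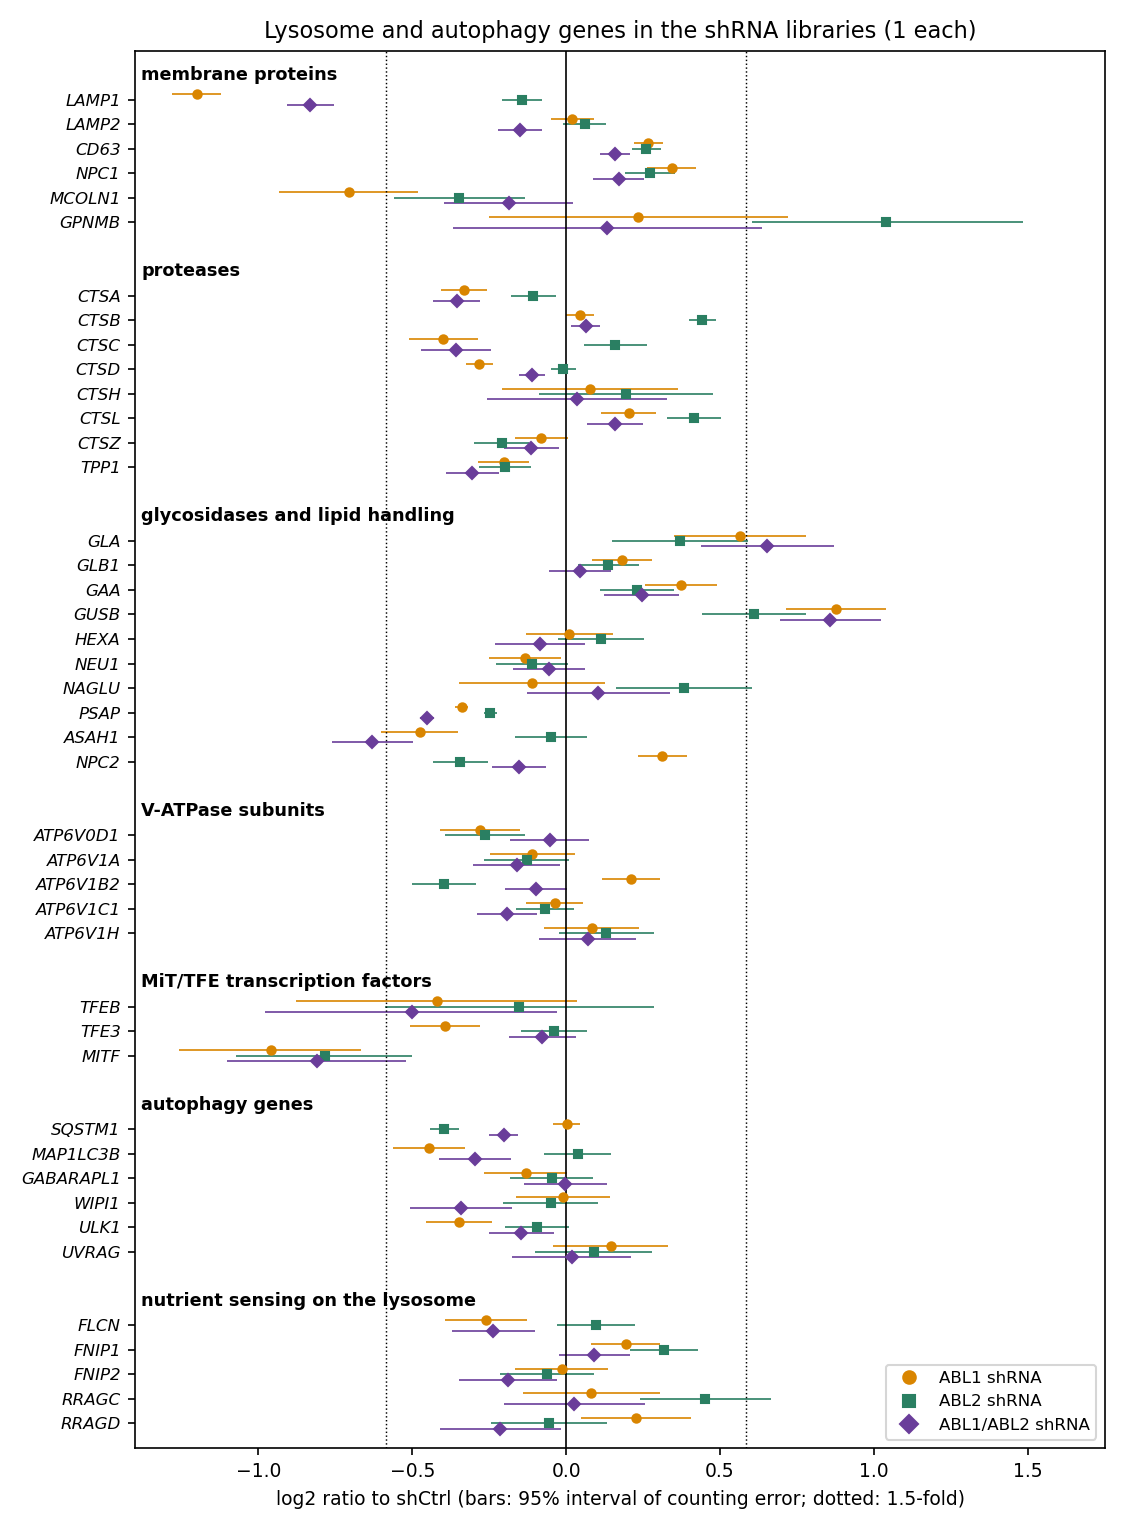
Log2 ratio of each of the 43 genes to shCtrl in the ABL1 (circles), ABL2 (squares) and ABL1/ABL2 (diamonds) shRNA samples, 1 sample each, with bars for the 95% interval of counting error and dotted lines at 1.5-fold. LAMP1 lies at -1.20 and -0.83 in the samples with an ABL1 hairpin and at -0.14 with ABL2 shRNA alone.

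LAMP1, MITF and GUSB were past 1.5-fold in at least 2 knockdowns, beside 8.93% of all genes higher and 8.54% lower. LAMP1 (chromosome 13, 113297239 to 113323672), the most used lysosomal membrane marker, was at 334.5 CPM in shCtrl, 145.6 under the ABL1 hairpin, 302.7 under the ABL2 hairpin and 188.0 under both. It was thus low in the 2 samples that carry the ABL1 hairpin and not in the other. The log2 ratios to shCtrl were -1.20 (counting interval -1.28 to -1.12), -0.14 (-0.21 to -0.08) and -0.83 (-0.91 to -0.76). Without use of shCtrl, the sample with both hairpins was at -0.69 on the log2 scale against ABL2 shRNA alone. MITF was at 23.1 CPM in shCtrl and at 11.9, 13.4 and 13.2 CPM in the knockdowns, from 262, 154, 169 and 160 counts. All 3 knockdowns were below shCtrl and near each other, with log2 ratios of -0.96, -0.78 and -0.81. Of all genes, 3.16% were lower than shCtrl by more than 1.5-fold in all 3. GUSB (chromosome 7, 65960684 to 65982215), the lysosomal glucuronidase, was at 40.2 CPM in shCtrl and at 73.8, 61.4 and 73.0 CPM in the knockdowns. Its log2 ratios were 0.88, 0.61 and 0.86, and 3.92% of all genes were higher in all 3. Because a single shCtrl sample stands on 1 side of these ratios, the level of that sample and the knockdown cannot be told apart for MITF and GUSB. For LAMP1, the paper lists only 1 ABL1 hairpin. Lower ABL1 and other effects of that hairpin therefore cannot be told apart.

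The remaining genes past 1.5-fold were so in 1 knockdown. MCOLN1 was at 34.8 CPM in shCtrl and 21.3 with ABL1 shRNA (log2 ratio -0.71), while with ABL2 shRNA and both it was at 27.3 and 30.5 CPM. GPNMB, at 5.64 CPM in shCtrl, reached 11.6 with ABL2 shRNA (log2 ratio 1.04, counting interval 0.60 to 1.49) and was at 6.62 and 6.18 CPM in the other two. GLA was above shCtrl (25.1 CPM) in every knockdown, at 37.1, 32.4 and 39.4 CPM. ASAH1 was at 101.2 CPM in shCtrl, 72.7 under the ABL1 hairpin, 97.8 under the ABL2 hairpin and 65.4 under both, so that it too was lowest in the 2 samples with the ABL1 hairpin. The limit given for LAMP1 holds for ASAH1 as well.

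**Figure D5:**
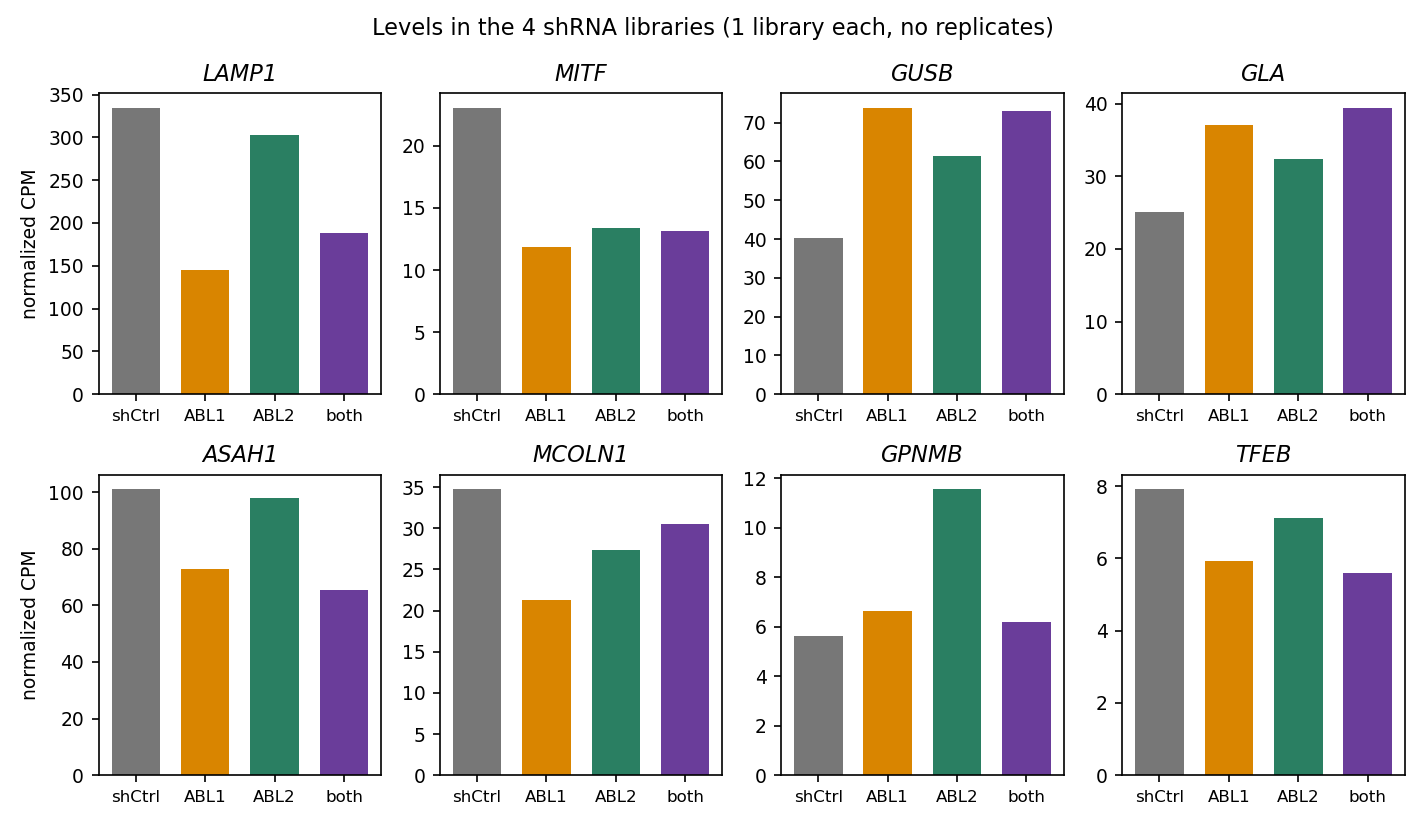
Normalized CPM of 8 genes in the shCtrl, ABL1, ABL2 and ABL1/ABL2 (both) shRNA samples, 1 sample each, without replicates. LAMP1 and ASAH1 are lowest in the 2 samples with the ABL1 hairpin, MITF is highest and GUSB and GLA are lowest in shCtrl.

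The genes that Ponatinib raised most, ULK1, GABARAPL1, TFEB and CTSD, were within 1.5-fold of shCtrl in the knockdowns, and none was above it. These ratios start from another baseline than the Ponatinib changes. Mean levels with DMSO and Ponatinib were 46.5 and 163.0 CPM for ULK1 and 23.3 and 52.4 CPM for GABARAPL1. They were 2.49 and 4.78 CPM for TFEB and 430.6 and 662.4 CPM for CTSD. In shCtrl, GABARAPL1, TFEB and CTSD were above both Ponatinib samples and ULK1 above both DMSO samples, on scales set separately. This difference in baseline was not tested. ULK1 was at 130.5 CPM in shCtrl and at 102.5, 122.2 and 118.0 CPM with ABL1, ABL2 and both hairpins, and GABARAPL1 was at 76.2, 69.5, 73.7 and 76.0 CPM in the same order. CTSD was at 779.5 CPM in shCtrl and at 641.2, 774.7 and 721.4 CPM in the knockdowns. TFEB, at 68 to 90 counts, was at 7.93 CPM in shCtrl and at 5.93, 7.13 and 5.60 CPM. The differences were beyond counting error for ULK1 and CTSD with the ABL1 hairpin, at log2 ratios of -0.35 (counting interval -0.46 to -0.24) and -0.28 (-0.33 to -0.24), and for TFEB with both hairpins, at -0.50 (-0.98 to -0.03). The same held for ULK1 and CTSD with both hairpins, at -0.15 (-0.25 to -0.04) and -0.11 (-0.15 to -0.07). Counting error leaves out the spread between samples, which 1 sample per group cannot give, so whether these differences exceed that spread was not tested. How many of all genes differed beyond counting error was not counted. TFE3 was at 119.2 CPM in shCtrl and at 90.8, 116.1 and 113.0 CPM in the knockdowns. Of the 17 genes that rose with Ponatinib, 6, 7 and 3 were above shCtrl with ABL1, ABL2 and both hairpins, with median log2 ratios of -0.20, -0.05 and -0.15. Of all 43 genes, 20, 20 and 15 were above shCtrl in the same order. Among all genes with enough counts, 7920 of 15832, 7651 of 15769 and 7852 of 15733 were above it. These counts share the single shCtrl sample and were not tested.

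The nutrient-sensing genes stayed within 1.5-fold of shCtrl. RRAGC was at 26.8 CPM in shCtrl and at 28.3, 36.6 and 27.3 CPM in the knockdowns, highest with ABL2 shRNA (log2 ratio 0.45, counting interval 0.24 to 0.67). RRAGD was at 39.5 CPM in shCtrl and at 46.3, 38.0 and 34.1 CPM, and FLCN was at 82.1, 68.5, 87.8 and 69.7 CPM in the order used above. FNIP1 was at 101.0, 115.5, 126.0 and 107.6 CPM and FNIP2 at 59.8, 59.2, 57.3 and 52.4 CPM. PSAP was below shCtrl (3011 CPM) in all 3, at 2379, 2538 and 2200 CPM. The 5 V-ATPase subunits had log2 ratios from -0.40 to 0.21.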

How the data were processed

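RNA was sequenced in 8 samples of LM2 cells. The deposited files, 1 for each sample, hold counts of reads on genes that the authors obtained on hg38 and did not normalize. FastQC, TopHat and HTSeq 0.6.0 are named in the submitters' processing notes, and the annotation and strand setting are not given in the sources used here. The files of shCtrl and of ABL1 shRNA carry headers with the condition swapped, and the labels were followed. In the shRNA files, 15.7% to 16.0% of counted reads were in rows for reads without a gene or with several, which were left out.

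Symbols, positions and exon lengths came from GENCODE (GRCh38), and promoters from RefSeq. Ponatinib was tested against DMSO with edgeR 4.0.16 in R 4.3.3 (TMM, filterByExpr, quasi-likelihood test, Benjamini-Hochberg adjustment over 16031 genes). Knockdowns, with 1 sample each, were described as CPM ratios to shCtrl for genes with at least 10 counts in 1 of the 2 samples, with exact (Clopper-Pearson) intervals. Replicates correlated at r = 0.9953 (DMSO) and 0.9925 (Ponatinib) across genes, and their counts differed beyond sampling noise, with chi-square per degree of freedom of 1.44 and 3.12. The study's methods ask for a fold over 2 and P under 0.05 without saying whether P was adjusted, and unadjusted P was used for that count. The genes, lists and tests were chosen with earlier results of these data known. Members with values in every sample were those called past 1.5-fold with Ponatinib and those past 1.5-fold in at least 2 knockdowns. The same was done for the MiT/TFE and nutrient-sensing genes. For the other lists, up to 4 genes with the largest called changes were named, only some with values in every sample. Further members were named as examples, beyond 2 a role in places, after their values were seen. Alternatives were DESeq2 1.42.0, other filters and scalings, a replicate block and leaving out each sample.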

Additional observations from a re-analysis of the deposited data

How the results depend on the processing

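The Ponatinib calls on the 43 genes kept within 1.5 times their number with DESeq2's size factors, without or with a stricter filter, and in a fit of all 8 samples. With a replicate block on the sample number, 22 genes were called against 23 (31.1% against 30.7% of all genes), the one lost being NEU1 (adjusted p = 0.0554). No label says that same-numbered samples were paired. Their deviations from the group means correlated at r = 0.0273, which cannot settle whether they shared a culture or batch. DESeq2's Wald test called 15, of which 3 were lower. Leaving out 1 sample gave 12 to 24 calls, 11 to 20 higher and 1 to 6 lower. There were 13 without DMSO replicate 1 and 12 without DMSO replicate 2 (16.9% and 19.5% of all genes), and 22 and 24 without Ponatinib replicates 1 and 2 (34.7% and 31.9%). In these fits the lone sample is assumed to vary like the other group. With a fold over 1.5 added, 4 were called, 4 higher and 0 lower, and a fold over 2 with an unadjusted P under 0.05 left 2, 2 higher and 0 lower. Of the 23 called genes, 11 were called in all 10 settings, and 4 of these settings rest on such a lone sample. The 11 genes were LAMP2, CTSD, PSAP, ASAH1, TFE3, MAP1LC3B, GABARAPL1, ULK1, FLCN, FNIP1 and RRAGC. How many of all tested genes kept their call in every setting was not counted. The cause of the other changes was not tested.

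Signs turned for genes near 0 when 1 sample was left out. The log2 fold change ran from -0.24 to 0.00062 for CTSL, -0.036 to 0.18 for GAA, -0.058 to 0.081 for GUSB, -0.078 to 0.062 for NAGLU, -0.034 to 0.033 for ATP6V0D1 and -0.086 to 0.026 for ATP6V1B2. It ran from -0.081 to 0.21 for ATP6V1H, -0.19 to 0.19 for MITF, -0.17 to 0.17 for WIPI1 and -0.070 to 0.12 for UVRAG. With DESeq2's size factors NAGLU was at 3.6e-05, with DESeq2's test MITF was at 0.010, and with the replicate block WIPI1 was at 0.0050.

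Knockdown counts depended on the rule. Past 2-fold there were 1, 1 and 0 genes with ABL1, ABL2 and both hairpins (8.87%, 7.65% and 7.74% of all genes), and 3, 1 and 2 had a counting interval wholly past 1.5-fold (6.4%, 4.69% and 5.03%). An edgeR fit of all 8 samples, whose spread comes from the other experiment, called 17, 12 and 10 (22.0%, 15.6% and 17.8% of all genes). In ratios chosen after seeing the data that do not use shCtrl, the sample with both hairpins had 2 genes past 1.5-fold against ABL2 shRNA and 0 against ABL1 shRNA (15.1% and 9.72% of all genes). In them MCOLN1 turned to 0.16, and GPNMB, GUSB and MITF turned to -0.10, -0.017 and 0.15. Depth limits TFEB, GPNMB and CTSH most.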

Other observations

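Among the 146 further genes of these pathways, 4 were past 1.5-fold from shCtrl in the same direction in all 3 knockdowns, beside 3.92% of all genes higher and 3.16% lower. CTSF, a cysteine protease of the lysosome, was at 46.1 CPM in shCtrl and at 76.1, 83.0 and 76.7 CPM with ABL1, ABL2 and both hairpins. MAN2B1, the lysosomal alpha-mannosidase, was at 31.4 CPM in shCtrl and at 49.1, 59.2 and 55.2 CPM. LAMTOR1, which anchors the Ragulator complex to the lysosome, was at 46.4 CPM in shCtrl and at 86.4, 79.2 and 84.4 CPM. RUBCN, an inhibitor of autophagosome maturation, was at 63.5 CPM in shCtrl and at 36.3, 40.7 and 41.4 CPM. All 4 rest on the single shCtrl sample. With Ponatinib, CTSF rose (log2 fold change 0.99), RUBCN fell by 0.36 on the log2 scale (adjusted p = 0.00305 by edgeR), and MAN2B1 and LAMTOR1 had log2 fold changes of 0.26 and -0.14, short of the threshold (adjusted p = 0.0516 and 0.146 by edgeR).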
